A study of Mus musculus with 36 samples.

Results

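The 9 genes described here encode the glucocorticoid receptor (Nr3c1), proteins that set how much hormone reaches it in liver (Hsd11b1, Serpina6) and genes known to respond to glucocorticoids (Tat, Ddit4, Klf9, Fkbp5, Tsc22d3, Sgk1). They were taken by name out of 34829 genes, and they were chosen by their signal in these same libraries as well as by their role, so their values are a description and no p-value is given for them. The signal is the deposited value named scaled reads per base, matched from the Ensembl gene identifier to the mouse symbol. All 9 reached a mean of 5 over the 36 libraries, the minimum for the 8702 genes that were tested.

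Liver RNA came from C57BL6/J mice, a standard inbred laboratory strain, kept at an ambient temperature of 30 °C or 22 °C and given lipopolysaccharide (LPS), a component of the Gram-negative bacterial cell wall that sets off systemic inflammation. The comparisons ask how the genes differed with time from LPS in mice at 30 °C and at 22 °C, and whether mice at 30 °C differed from mice at 22 °C. At 30 °C there were 5 samples at 0 h, 4 at 4 h, 4 at 12 h and 5 at 24 h, and at 22 °C there were 4, 4, 5 and 5 at the same times. The sex and age of the mice, the dose of LPS and the length of stay at each temperature are not stated in the labels. No group without LPS at 4, 12 or 24 h is among the labels, and hour of sampling and LPS therefore cannot be told apart in a difference from 0 h. The labels name no glucocorticoid treatment and no hormone measurement, so the name glucocorticoid-responsive is background on these genes and not a result.

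Corticosterone, the main glucocorticoid of the mouse, is made by the adrenal gland and circulates bound to corticosteroid-binding globulin, a protein secreted by hepatocytes. Inside the cell the hormone binds the glucocorticoid receptor, which leaves a chaperone complex, enters the nucleus and binds DNA at short palindromic elements. In liver the receptor is known for inducing enzymes of amino acid breakdown and glucose production, and for restraining inflammation. Its level, the carrier and the enzymes that make or remove active hormone in the cell all bear on the response.

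The consensus element is a palindrome of 15 bases, AGAACA, then any 3 bases, then TGTTCT. It was searched as exact letters on both strands in windows of 300 bases, 250 before and 50 after each gene's start, from the RefSeq promoter table (GRCm38.p6). The table held 14 windows for 7 of the 9 genes. The full element was in 1 of these 14 windows, and in 3 of all 32851 windows (0.00913%), which belong to Sgk1, Acnat2 and Gm35041. A single arm, AGAACA or TGTTCT, was in 4 of the 14 windows, all of Sgk1 or Tsc22d3, and in 6233 of all 32851 windows (19.0%). The arm count includes windows with the full element. Windows are printed for the gene with the full element, for the gene with an arm alone, and for Tat and Ddit4, whose signal differed most between temperatures at 4 h among the 9 genes and which hold neither; capitals mark the matches. Sgk1 and Tsc22d3 each have several of the 14 windows, from different starts, and which start is used in these livers was not tested. The full element of Sgk1 begins 189 bases before the start of the transcript whose window is printed. The other windows of Sgk1 lack it. The arm of Tsc22d3 begins 185 bases before the start for its printed window, and the other windows of Tsc22d3 hold no arm.
Sgk1 (chr10:21993640-21993939, plus strand): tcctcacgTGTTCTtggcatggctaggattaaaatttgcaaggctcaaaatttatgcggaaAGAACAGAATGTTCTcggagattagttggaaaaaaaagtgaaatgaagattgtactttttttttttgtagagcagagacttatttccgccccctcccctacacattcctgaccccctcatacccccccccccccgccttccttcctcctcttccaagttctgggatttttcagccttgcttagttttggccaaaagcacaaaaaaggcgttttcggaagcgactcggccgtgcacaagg
Tsc22d3 (chrX:140600473-140600772, minus strand): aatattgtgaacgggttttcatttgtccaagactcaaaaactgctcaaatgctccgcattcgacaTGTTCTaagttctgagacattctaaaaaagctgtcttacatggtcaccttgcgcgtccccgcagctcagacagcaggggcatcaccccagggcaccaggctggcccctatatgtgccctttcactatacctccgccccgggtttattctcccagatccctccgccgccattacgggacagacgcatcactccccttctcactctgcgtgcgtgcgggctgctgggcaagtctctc
Tat (chr8:109990186-109990485, plus strand): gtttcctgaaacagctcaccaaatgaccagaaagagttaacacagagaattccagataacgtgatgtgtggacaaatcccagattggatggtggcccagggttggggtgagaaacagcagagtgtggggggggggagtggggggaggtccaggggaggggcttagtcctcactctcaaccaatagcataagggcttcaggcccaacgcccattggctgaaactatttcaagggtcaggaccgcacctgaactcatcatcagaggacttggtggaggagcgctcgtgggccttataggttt
Ddit4 (chr10:59951721-59952020, minus strand): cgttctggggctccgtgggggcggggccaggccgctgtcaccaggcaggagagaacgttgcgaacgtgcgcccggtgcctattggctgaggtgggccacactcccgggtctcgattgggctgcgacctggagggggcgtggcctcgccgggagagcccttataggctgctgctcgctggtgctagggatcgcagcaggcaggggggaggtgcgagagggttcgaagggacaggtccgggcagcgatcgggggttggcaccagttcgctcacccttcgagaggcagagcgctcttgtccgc
A match is a description of letters, and the lack of one says only that these letters are not in that window.

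The 9 genes did not move as one group after LPS. Tat, Ddit4 and Fkbp5 had higher means at 4, 12 and 24 h than at 0 h at both temperatures, Serpina6 and Hsd11b1 lay far below it at 24 h, and Tsc22d3 was low at 4 h and back near its 0 h level by 24 h. The genes whose samples did not overlap between the temperatures varied with the time. At 0 h Hsd11b1 was higher at 30 °C than at 22 °C with no overlap of samples. At 4 h Tat, Ddit4 and Klf9 were lower at 30 °C with no overlap, at 12 h Ddit4 was, and at 24 h Serpina6 and Fkbp5 were. Such a list depends on single samples. Serpina6 at 12 h (-1.73 ± 0.36) and Hsd11b1 at 12 h (-0.44 ± 0.15) and 24 h (-0.60 ± 0.14) were lower at 30 °C too, but their samples overlapped. Differences here and below are on the log2(signal + 1) scale with the standard error of the limma fit over all groups, and mean signals are given ± SD. That scale understates differences of genes with low signal.

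**Figure D1:**
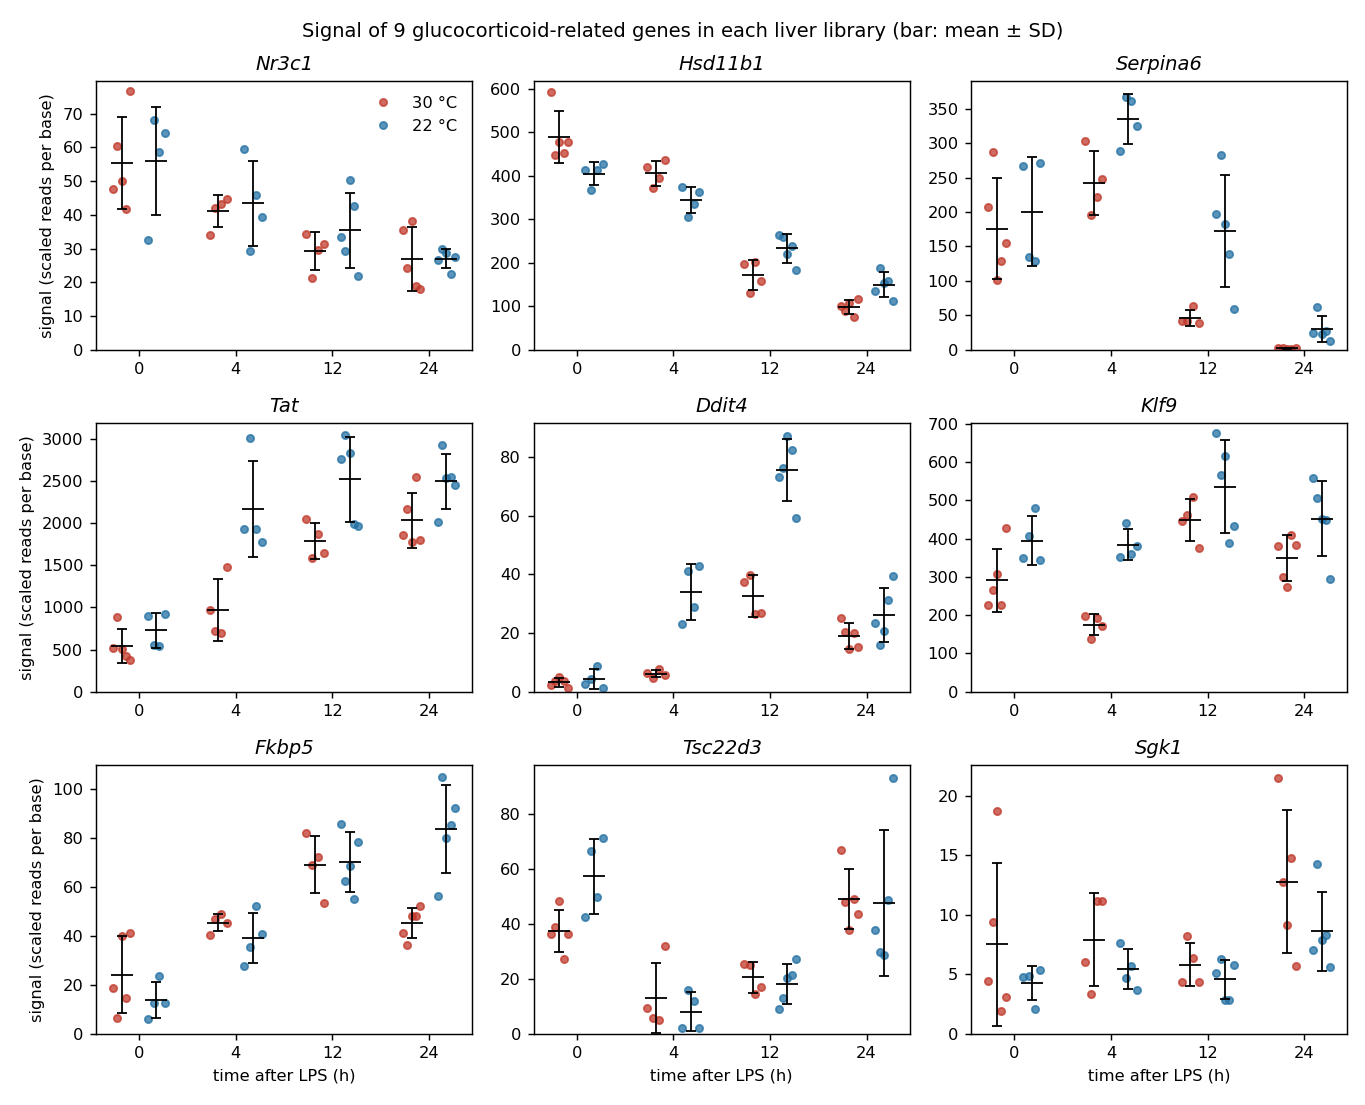
Signal (scaled reads per base, y axis of each panel from 0) of the 9 genes at 0, 4, 12 and 24 h after LPS, with 30 °C left of 22 °C; each point is 1 library and the bars are mean ± SD. Serpina6 at 24 h shows the 5 libraries at 30 °C between 0.848 and 2.65 and the 5 at 22 °C between 12.7 and 61.2.

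Depth was 556798 to 2744275 estimated reads per library, and 3 reads were taken as worth between 1.33 and 5.05 units of signal. This worth was set once per library and applied to every gene. The signal is per base, so the worth of a read can differ between genes, and the level of 3 reads is approximate. Libraries below the level of 3 reads, by more than 0.01 read, numbered 4 of 36 for Ddit4, all at 0 h, 5 for Sgk1, 2 for Tsc22d3 and 2 for Serpina6, and 0 for the other 5 genes. A single library stood apart: replicate 4 of 30 °C at 4 h had a value above 0 for 18633 genes, against 12307 to 14233 in the other 35, so results that rest on it are given with and without it. The liver label was checked against 8 hepatocyte markers, all above 0 in all 36 libraries. T-cell markers summed to at most 22.9 in any library.

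Markers of other cell types moved with time and temperature. The summed signal of 10 neutrophil and monocyte markers, each above 0 in 19 to 36 libraries, was 62.9 to 291 at 30 °C and 55.8 to 91.5 at 22 °C at 0 h, and 212 to 276 at 30 °C and 149 to 214 at 22 °C at 4 h. It was 372 to 628 at 30 °C and 277 to 399 at 22 °C at 12 h, and 264 to 431 at 30 °C and 153 to 362 at 22 °C at 24 h. The medians were higher at each later time than at 0 h, and higher at 30 °C than at 22 °C at each later time.

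The summed signal of 8 hepatocyte markers was 31149.8 to 50062 at 30 °C and 34351 to 45143 at 22 °C at 0 h, and 54704 to 69226 at 30 °C and 53257 to 66301 at 22 °C at 4 h. At 12 h it was 41766 to 48425 at 30 °C and 49778 to 60103 at 22 °C, lower at 30 °C without overlap, and at 24 h it was 55239 to 63004 at 30 °C and 55753 to 67503 at 22 °C. That sum is largely Fgb, a fibrinogen chain and acute-phase gene with a mean signal of 28885. The summed signal of all genes at 12 h was also lower at 30 °C without overlap. It was 828054 to 917457 at 30 °C and 1025510 to 1131968 at 22 °C. Kupffer cell and endothelial markers had lower medians at each later time than at 0 h. The median sum of 9 Kupffer cell markers, those of liver macrophages, was 256, 148, 72.0 and 108 at 0, 4, 12 and 24 h at 30 °C and 235, 134, 64.3 and 62.6 at 22 °C. The median sum of 8 endothelial markers was 247, 139, 132 and 144 at these times at 30 °C and 216, 156, 140.2 and 119.9 at 22 °C. Stellate cell markers (7) had median sums of 578, 358, 496 and 544 at 30 °C and 479, 403, 487 and 478 at 22 °C, lowest at 4 h. That sum is largely Dcn, with a mean signal of 449. The 5 cholangiocyte markers, of which Sox9, Spp1 and Krt7 were above 0 in all 36 libraries, Epcam in 30 and Krt19 in 7, had their highest median sums at 4 h, with 84.1, 216, 38.5 and 84.6 at 0, 4, 12 and 24 h at 30 °C and 64.7, 266, 122 and 56.6 at 22 °C. At 12 h they summed to 29.2 to 51.9 at 30 °C and 46.3 to 228 at 22 °C. By mean signal over all libraries, most of the cholangiocyte sum is Sox9 (92.6). The 5 B-cell markers had medians of at most 20.3 in any group. The part of these markers in the differences below was not tested.

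The carrier Serpina6, on chr12:103646630-103657212 (minus strand; gene positions are those of GENCODE M21, GRCm38), was the gene of the 9 with the widest range over the groups. At 0 h its signal was 207, 287, 102, 129 and 154 at 30 °C, against 267, 134, 129 and 271 at 22 °C. At 4 h it was 304, 195, 222 and 248 at 30 °C, against 288, 367, 361 and 325 at 22 °C. The temperatures overlapped at both times, and at 22 °C all 4 samples at 4 h lay above all 4 at 0 h. At 12 h the signal was 41.4, 41.2, 63.4 and 39.2 at 30 °C, against 197, 283, 182, 139 and 59.7 at 22 °C. At 24 h it was 2.43, 2.11, 0.848, 1.12 and 2.65 at 30 °C, against 23.9, 61.2, 22.5, 27.6 and 12.7 at 22 °C. At 12 h a single sample at 22 °C (59.7) lay within the range of 30 °C, and at 24 h every sample at 30 °C lay below every sample at 22 °C.

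Serpina6 at 24 h averaged 1.83 ± 0.803 at 30 °C (n = 5) and 29.6 ± 18.5 at 22 °C (n = 5), a log2 difference of -3.30 ± 0.34. At 12 h the difference between temperatures was -1.73 ± 0.36, at 4 h -0.48 ± 0.38 and at 0 h -0.19 ± 0.36. Relative to 0 h, Serpina6 at 24 h was lower by a log2 difference of -5.92 ± 0.34 at 30 °C and -2.81 ± 0.36 at 22 °C, with no overlap at either temperature. At 30 °C it was already below every 0 h sample at 12 h (-1.83 ± 0.36), while at 22 °C the 12 h and 0 h samples overlapped (-0.29 ± 0.36, and 0.04 without replicate 5 of 22 °C at 12 h). In 2 of the 5 libraries of 30 °C at 24 h the signal was below the level of 3 reads, and with 5 added before the log in place of 1 the differences at 24 h were smaller, -4.64 from 0 h at 30 °C and -2.21 between temperatures. In order of mean, the only neighbouring groups whose samples did not overlap were 22 °C at 24 h and 30 °C at 24 h, the lowest. In bulk RNA, fewer cells of a type and less RNA per cell cannot be told apart, here and for every gene below.

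Hsd11b1 encodes the reductase that regenerates active corticosterone from its inert keto form inside hepatocytes, and it lies on chr1:193221634-193264075 (minus strand). At 0 h its signal was 592, 447, 477, 453 and 477 at 30 °C, against 412, 367, 413 and 428 at 22 °C. Every sample at 30 °C was above every sample at 22 °C at this time, by a narrow margin (0.27 ± 0.15). At 4 h the difference between temperatures was 0.24 ± 0.16, with overlapping samples. At 12 h the mean was lower at 30 °C, 172 ± 33.9 (n = 4) against 233 ± 32.4 at 22 °C (n = 5), and samples overlapped (-0.44 ± 0.15). At 24 h it was lower at 30 °C as well, with 101, 89.5, 107, 74.9 and 116 at 30 °C, against 136, 188, 154, 157 and 111 at 22 °C (-0.60 ± 0.14). At that time 1 sample at 22 °C lay within the range of 30 °C. The later samples were lower than those at 0 h at both temperatures. At 30 °C the difference from 0 h was -0.26 ± 0.15 at 4 h, -1.52 ± 0.15 at 12 h and -2.32 ± 0.14 at 24 h, and at 22 °C it was -0.24 ± 0.16, -0.81 ± 0.15 and -1.45 ± 0.15. Samples did not overlap with 0 h at 12 and 24 h at either temperature, nor at 4 h at 30 °C. The difference from 0 h at 30 °C minus that at 22 °C was -0.71 ± 0.21 at 12 h and -0.87 ± 0.21 at 24 h.

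The receptor gene Nr3c1 was lower at later times and showed no separation by temperature. It averaged 55.4 ± 13.7, 41.1 ± 4.74, 29.2 ± 5.59 and 26.9 ± 9.44 at 0, 4, 12 and 24 h at 30 °C (n = 5, 4, 4 and 5). At 22 °C it averaged 56.0 ± 16.0, 43.5 ± 12.7, 35.4 ± 11.2 and 27.0 ± 2.82 (n = 4, 4, 5 and 5). The ranges of the temperatures overlapped at all 4 times, with log2 differences between -0.23 ± 0.25 and 0.01 ± 0.25. Relative to 0 h the samples did not overlap at 12 h (-0.89 ± 0.25) and 24 h (-1.05 ± 0.24) at 30 °C and at 24 h at 22 °C (-0.98 ± 0.25). At 22 °C the 12 h samples, 21.7 to 50.2, overlapped with 0 h (-0.65 ± 0.25). In order of mean, no neighbouring groups of Nr3c1 were separated.

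Tat encodes tyrosine aminotransferase, the first enzyme of tyrosine breakdown and a long-used readout of glucocorticoid action in liver, on chr8:109990437-109999803 (plus strand). At 0 h its signal was 515, 882, 503, 421 and 378 at 30 °C, against 897, 552, 543 and 923 at 22 °C. At 4 h it was 968, 724, 694 and 1483 at 30 °C, against 1937, 3016, 1933 and 1777 at 22 °C. The temperatures overlapped at 0 h and were separate at 4 h, when the highest sample at 30 °C was still below the lowest at 22 °C. At 12 h the signal was 2049, 1582, 1876 and 1649.5 at 30 °C, against 2758, 3053, 2834, 1988 and 1973 at 22 °C, and at 24 h it was 1861, 2174, 1780.1, 2550.4 and 1801 at 30 °C, against 2017, 2933, 2533, 2549 and 2452 at 22 °C. The ranges overlapped again at both of these times.

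At 4 h Tat averaged 967 ± 365 at 30 °C (n = 4) and 2166 ± 572 at 22 °C (n = 4), a difference of -1.20 ± 0.23. Without replicate 4 of 30 °C, which had the highest value of that group, it averaged 795 ± 151 at 30 °C (n = 3) and the difference was -1.43 ± 0.23. At 0, 12 and 24 h the differences were -0.45 ± 0.22, -0.48 ± 0.22 and -0.30 ± 0.21. Tat at 22 °C was above every 0 h sample from 4 h on, by 1.58 ± 0.23, 1.81 ± 0.22 and 1.81 ± 0.22 at 4, 12 and 24 h. At 30 °C the 4 h samples overlapped with 0 h (0.84 ± 0.22, and 0.61 ± 0.22 without replicate 4), and those at 12 h (1.79 ± 0.22) and 24 h (1.96 ± 0.21) did not. The difference from 0 h at 30 °C minus that at 22 °C was -0.75 ± 0.32 at 4 h, -0.02 ± 0.31 at 12 h and 0.15 ± 0.31 at 24 h. The groups thus fell into a high and a low set, with 30 °C at 12 h the lowest of the high set and 30 °C at 4 h the highest of the low one, and only between these 2 did neighbouring groups in order of mean not overlap.

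Ddit4 encodes an inhibitor of the growth kinase complex mTORC1 and is known as a stress and glucocorticoid target, on chr10:59949669-59951834 (minus strand). At 0 h its signal was near the floor, 2.30, 3.80, 5.05, 3.50 and 1.25 at 30 °C, against 2.46, 4.41, 8.90 and 1.42 at 22 °C. At 4 h it was 6.22, 4.82, 7.66 and 5.80 at 30 °C, against 23.2, 41.2, 28.7 and 42.7 at 22 °C. At 4 h the samples at 22 °C were above every 0 h sample, and those at 30 °C overlapped with 0 h. At 12 h the signal was 37.3, 39.9, 26.5 and 26.8 at 30 °C, against 73.1, 76.2, 87.2, 82.3 and 59.2 at 22 °C. At 24 h it was 24.9, 20.5, 14.5, 20.1 and 15.1 at 30 °C, against 23.3, 16.0, 20.8, 31.1 and 39.3 at 22 °C. The temperatures were separate at 4 and 12 h and overlapped at 0 and 24 h.

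The difference of Ddit4 between 30 °C and 22 °C was -2.27 ± 0.33 at 4 h (means 6.12 ± 1.18 at 30 °C and 33.9 ± 9.52 at 22 °C, n = 4 each) and -1.20 ± 0.31 at 12 h (means 32.6 ± 7.00 at 30 °C, n = 4, and 75.6 ± 10.7 at 22 °C, n = 5). The differences at 0 and 24 h were -0.22 ± 0.31 and -0.40 ± 0.30. Both temperatures had their highest mean at 12 h, and the mean at 30 °C was then close to that of 22 °C at 4 h, with overlapping samples. Relative to 0 h, Ddit4 was higher by 0.83 ± 0.31, 3.06 ± 0.31 and 2.31 ± 0.30 at 4, 12 and 24 h at 30 °C, and by 2.88 ± 0.33, 4.04 ± 0.31 and 2.49 ± 0.31 at 22 °C. The difference from 0 h at 30 °C minus that at 22 °C was -2.05 ± 0.46 at 4 h, -0.98 ± 0.44 at 12 h and -0.18 ± 0.43 at 24 h. With 5 added before the log, the difference between temperatures at 4 h was -1.78. At 12 h the sum of the hepatocyte markers and the summed signal of all genes were lower at 30 °C as well, without overlap. The part of these sums in the 12 h differences of Ddit4, and of Serpina6 and Hsd11b1 above, was not tested.

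Klf9 encodes a zinc-finger transcription factor known as a glucocorticoid and thyroid hormone target, on chr19:23141226-23168134 (plus strand). At 4 h its signal was 199, 137, 191 and 171 at 30 °C, against 352, 442, 361 and 379 at 22 °C. The temperatures were separate at this time (-1.14 ± 0.20), and the samples at 30 °C were also below every 0 h sample of their own temperature (-0.71 ± 0.19), which lay between 227 and 427. At 22 °C the 4 h and 0 h samples overlapped (-0.03 ± 0.20). At 0, 12 and 24 h the temperatures overlapped, with differences of -0.47 ± 0.19, -0.24 ± 0.19 and -0.36 ± 0.18. At 12 h Klf9 averaged 448 ± 54.7 at 30 °C (n = 4) and 536 ± 121 at 22 °C (n = 5), the highest mean of each temperature, and both overlapped with 0 h.

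Fkbp5 encodes an immunophilin of the receptor's chaperone complex that lowers hormone binding, and it is itself induced by the receptor, on chr17:28399094-28517527 (minus strand). At 24 h its signal was 41.4, 36.4, 48.2, 48.2 and 52.1 at 30 °C, against 56.4, 105, 80.1, 85.3 and 92.3 at 22 °C. Every sample at 30 °C was below every sample at 22 °C (-0.86 ± 0.32). At 0, 4 and 12 h the temperatures overlapped, with differences of 0.64 ± 0.34, 0.24 ± 0.35 and -0.02 ± 0.34. The courses parted after 12 h, when the means were 69.2 ± 11.8 at 30 °C (n = 4) and 70.1 ± 12.2 at 22 °C (n = 5). At 24 h the means were 45.3 ± 6.27 at 30 °C and 83.8 ± 17.9 at 22 °C (n = 5 each), and the difference from 0 h at 30 °C minus that at 22 °C was -1.50 ± 0.46. Relative to 0 h, Fkbp5 at 22 °C was higher without overlap at 4, 12 and 24 h (1.55 ± 0.35, 2.39 ± 0.34 and 2.64 ± 0.34). At 30 °C this held only at 12 h (1.73 ± 0.34), since the 0 h samples there ran from 6.39 to 41.4.

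Tsc22d3 encodes the glucocorticoid-induced leucine zipper protein, which restrains inflammatory signalling, on chrX:140539528-140600659 (minus strand), and its window with an arm of the element is printed above. At 4 h its signal was 9.38, 5.60, 5.09 and 32.0 at 30 °C, against 2.05, 16.0, 12.0 and 2.09 at 22 °C. At 0 h it was 36.4, 38.9, 48.5, 27.1 and 36.2 at 30 °C, against 42.4, 66.6, 49.6 and 71.1 at 22 °C. At 22 °C every 4 h sample was below every 0 h sample (-3.08 ± 0.47). At 30 °C the difference was -1.80 ± 0.45 and only replicate 4, the library that stood apart, reached the 0 h range; without it the 4 h mean was 6.69 ± 2.35 (n = 3) in place of 13.0 ± 12.8 (n = 4) and the difference -2.34 ± 0.43, with no overlap. At 12 h the samples were below every 0 h sample at both temperatures (-0.84 ± 0.45 at 30 °C and -1.68 ± 0.45 at 22 °C). At 24 h they overlapped with 0 h, averaging 49.0 ± 11.0 at 30 °C and 47.7 ± 26.7 at 22 °C (n = 5 each). The temperatures overlapped at all 4 times.

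Sgk1 encodes a kinase known for its induction by glucocorticoids and mineralocorticoids and for its action on ion transport, on chr10:21882184-21999903 (plus strand). Its signal was low throughout, from 1.93 to 21.5 at 30 °C and from 2.10 to 14.3 at 22 °C, and 5 of 36 libraries were below the level of 3 reads. The temperatures overlapped at all 4 times, with differences of 0.40 ± 0.43, 0.38 ± 0.45, 0.31 ± 0.43 and 0.47 ± 0.41. The samples were separate from 0 h only for 22 °C at 24 h, at 5.60 to 14.3 against 2.10 to 5.35 (0.86 ± 0.43). At 30 °C the 0 h samples spread from 1.93 to 18.7 and overlapped with every later time. Sgk1 was thus the gene with the full element printed above and the gene of the 9 with the smallest mean signal per base, and at this depth differences of the size of its standard errors could not be resolved.

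**Figure D2:**
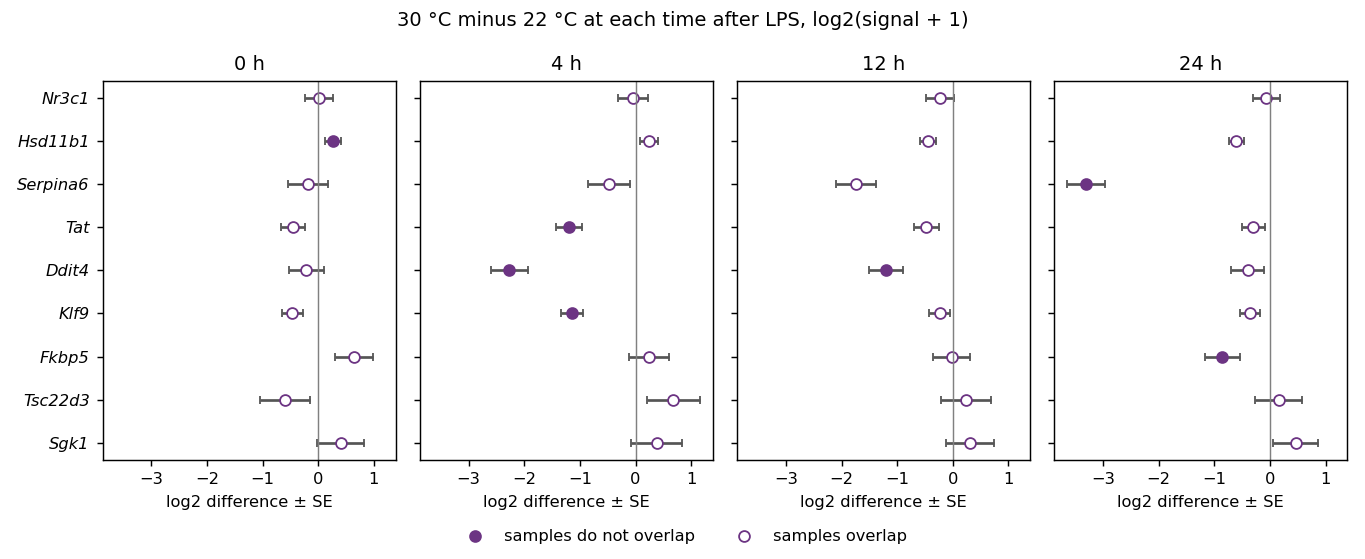
Log2 difference of the 9 genes, 30 °C minus 22 °C, at 0, 4, 12 and 24 h after LPS (x axis, log2(signal + 1) scale; bars are SE of the limma fit). Filled points mark genes whose samples did not overlap between the temperatures: Hsd11b1 at 0 h, Tat, Ddit4 and Klf9 at 4 h, Ddit4 at 12 h, and Serpina6 and Fkbp5 at 24 h.

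Counted over the 9 genes, samples of 30 °C and 22 °C did not overlap for 1 gene at 0 h, where it was higher at 30 °C, against 3.15% of the 8702 genes tested. They did not overlap for 3 genes at 4 h (all lower at 30 °C, against 4.32% of all genes), for 1 gene at 12 h (lower, against 7.78%) and for 2 genes at 24 h (lower, against 11.3%). Because the 9 genes were chosen with these values known, nothing is read from these counts. The median difference of the 9 genes between temperatures was -0.19, -0.04, -0.24 and -0.36 at 0, 4, 12 and 24 h, beside 0.01, 0.04, -0.01 and -0.03 for all genes tested. Leaving out 1 library moved each count, and only the larger shifts are given here. At 0 h it was 2 without replicate 2, 3 or 5 of 30 °C or replicate 1 of 22 °C, and at 4 h it was 5 without replicate 1 of 22 °C. The genes added at 4 h were Serpina6, lower at 30 °C, and Hsd11b1, higher at 30 °C. At 12 h it was 2 without replicate 1 or 3 of 30 °C and 3 without replicate 5 of 22 °C, and at 24 h it was 4 without replicate 5 of 22 °C.

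Against 0 h, samples at 30 °C did not overlap for 2 of the 9 genes at 4 h (25.4% of all genes tested), for 7 at 12 h (31.9%) and for 5 at 24 h (20.2%). At 22 °C the counts were 5 at 4 h (29.9% of all genes), 5 at 12 h (32.7%) and 7 at 24 h (28.4%). At 24 h the genes above 0 h were Tat and Ddit4 at 30 °C and Tat, Ddit4, Fkbp5 and Sgk1 at 22 °C, and the genes below it at both temperatures were Serpina6, Nr3c1 and Hsd11b1. The count for 30 °C at 4 h was 4 without replicate 4 of 30 °C at 0 h, and 4 after median-ratio rescaling of the libraries. The 3 later times of a temperature are set against the same 0 h samples. The medians of the 9 genes were 0.29, -0.01 and 0.38 at 30 °C and 0.31, 0.08 and 0.18 at 22 °C. Of the 9 differences, 5, 4 and 6 were positive at 30 °C, and 5 were at each time at 22 °C.

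**Figure D3:**
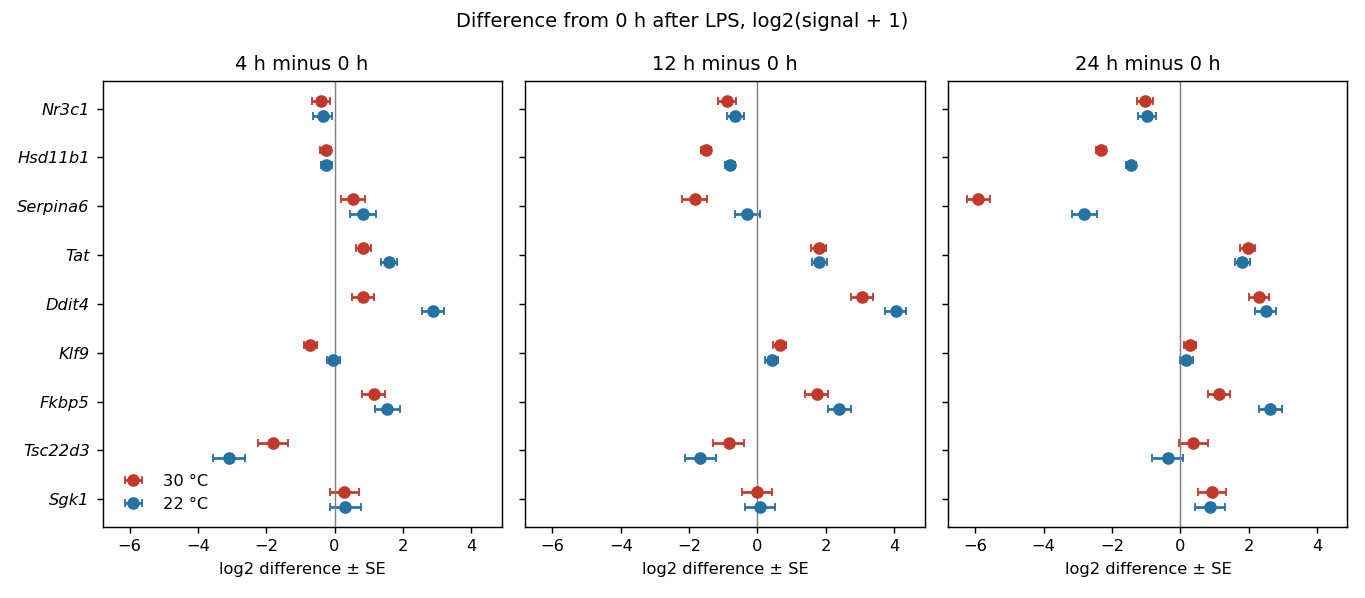
Log2 difference of the 9 genes from 0 h at 4, 12 and 24 h after LPS (x axis, log2(signal + 1) scale), with 30 °C drawn above 22 °C for each gene; bars are SE of the limma fit. Serpina6 reached -5.92 at 30 °C and -2.81 at 22 °C at 24 h, and Ddit4 reached 3.06 at 30 °C and 4.04 at 22 °C at 12 h.

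For each of the 9 genes the most similar course over the 8 groups was looked for among 4224 genes whose mean signal reached 20. Genes without a symbol, with Gm, Rik or clone names, or of the mitochondrial genome were left out. Likeness was the root mean square difference of centred group means on the log2 scale. Some courses had a close match. Nr3c1, whose own group means deviated by 0.390 from their average, lay within 0.064 of Bbip1, Hsd11b1 (0.778) within 0.123 of Dcxr and 0.157 of Lipc, and Fkbp5 (0.854) within 0.120 of Rlf. Tat (0.831) lay within 0.191 of Gpt2, the mitochondrial alanine aminotransferase, and within 0.240 of Wfdc21. Klf9 (0.465) was nearest to Gcnt4 at 0.182, Tsc22d3 (1.044) to Mxd4 at 0.319, and Sgk1 (0.409) to Nln at 0.165. Serpina6 (2.154) and Ddit4 (1.439) had no gene nearer than 0.577 (Gstm3) and 0.528 (Synpo). None of the 9 genes was among the 3 nearest of another. Sgk1, with a mean signal of 7.26, was below the minimum of 20 and could not be.

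The surrounding pathway was followed in a list of 45 genes: the receptor's chaperones and coactivators, steroid-metabolising enzymes, and liver genes known to respond to glucocorticoids. Of these, 39 passed the filter and were tested. The list was chosen with earlier results of these data known. Its calls therefore describe these genes, and in no comparison is anything read from its shares called beside those of all genes. Nr3c2, Srd5a2, Sesn1, Rgs2 and Anxa1 were below the minimum mean signal, and Hsd11b2, which inactivates corticosterone in kidney, was listed at 0 in all 36 libraries. Calls are limma adjusted p-values under 0.05 over all 8702 genes, and since the labels do not say that samples came from separate animals, p-values measure the spread between samples. In the promoter windows of this list the full element was in 0 of 42 windows and an arm in 5 (11.9%).

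After LPS most of the list changed at both temperatures. At 4 h, 14 genes rose and 6 fell at 30 °C (51.3% of the 39 tested, against 32.5% of all genes) and 19 rose and 5 fell at 22 °C (61.5%, against 29.4%). At 12 h, 20 rose and 7 fell at 30 °C (69.2%, against 38.3%) and 21 rose and 6 fell at 22 °C (69.2%, against 41.4%). At 24 h, 17 rose and 7 fell at 30 °C (61.5%, against 29.7%) and 18 rose and 6 fell at 22 °C (61.5%, against 37.0%). Many of these genes are also known to respond to inflammation or fasting, and which signal moved them was not tested.

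Of 3 tested steroid-metabolising enzymes, 1 rose and 2 fell at 12 and 24 h at both temperatures. H6pd, which supplies the cofactor used by the Hsd11b1 enzyme, rose at all 3 times at both temperatures, by 1.10 ± 0.18 at 30 °C (adjusted p = 7.68e-06) and 1.27 ± 0.18 at 22 °C (adjusted p = 8.43e-07) at 12 h. Akr1d1 and Srd5a1, reductases that inactivate glucocorticoids, fell at both times, and Srd5a1 was then below the level of 3 reads in 3 of 4 libraries at 30 °C and 5 of 5 at 22 °C at 12 h, and in 3 of 5 at 30 °C and 4 of 5 at 22 °C at 24 h. At 12 h Akr1d1 fell by 3.87 ± 0.48 on the log2 scale at 30 °C (adjusted p = 5.22e-08) and by 3.44 ± 0.48 at 22 °C (adjusted p = 5.69e-07). At 24 h Akr1d1 was higher at 30 °C, at 12.3 ± 9.41, than at 22 °C, at 2.76 ± 2.46 (n = 5 each; 1.68 ± 0.46, adjusted p = 0.00813), a call that was lost with only these groups in the fit (adjusted p = 0.068). At 24 h Akr1d1 was below the level of 3 reads in 0 of 5 libraries at 30 °C and 4 of 5 at 22 °C, and at 12 h in 1 of 4 at 30 °C and 1 of 5 at 22 °C, so the size of these differences depends on the 1 added before the log.

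Among the 8 tested chaperones and coactivators, Fkbp4, the immunophilin that competes with Fkbp5 in the receptor complex, fell at 12 and 24 h at both temperatures. At 24 h it averaged 44.7 ± 17.5 at 30 °C and 12.3 ± 7.99 at 22 °C (n = 5 each; 1.90 ± 0.36, adjusted p = 0.000279). Its change from 0 h differed between temperatures at 24 h (1.94 ± 0.53, adjusted p = 0.0178). The chaperone Hsp90ab1 fell at both temperatures at 12 and 24 h. At 4 h it passed only at 30 °C, from 1153 ± 301 (n = 5) at 0 h to 509 ± 280 (n = 4). At 22 °C it went from 907 ± 190 to 544 ± 41.8 (n = 4 each), without overlap of samples. The coactivator Ncoa1 passed at 4 h only at 22 °C (limma adjusted p = 0.000313), from 17.3 ± 4.98 to 3.55 ± 2.21 (n = 4 each). Of these 4 h libraries, 2 of 4 were below the level of 3 reads. At 30 °C Ncoa1 went from 11.9 ± 5.63 (n = 5) to 7.27 ± 7.02 (n = 4). The corepressor Ncor1 fell at 4 h at both temperatures. That call was lost at 22 °C without replicate 2 or 4 of 0 h or replicate 1 or 3 of 4 h.

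Metallothioneins Mt1 and Mt2, which bind zinc and are known targets of both glucocorticoids and inflammatory signals, rose in all 6 comparisons with 0 h, by 3.90 to 5.39 on the log2 scale. The transcription factors Cebpb and Cebpd rose in all 6 as well, as did the cell-cycle inhibitor Cdkn1a. Among metabolic genes, the glucose-producing enzyme G6pc fell at 4 h by 4.11 ± 0.40 at 30 °C (adjusted p = 3.79e-10) and by 4.20 ± 0.42 at 22 °C (adjusted p = 8.55e-10), with 1 of 4 libraries at 30 °C and 2 of 4 at 22 °C below the level of 3 reads at 4 h, while Sds, which breaks down serine, rose by 2.06 ± 0.42 at 30 °C (adjusted p = 0.000214) and 2.45 ± 0.44 at 22 °C (adjusted p = 4.82e-05). At 12 h Lpin1, a regulator of lipid synthesis, rose by 2.56 ± 0.29 at 30 °C (adjusted p = 8.07e-09) and 2.54 ± 0.29 at 22 °C (adjusted p = 1.2e-08), and Gpt, an alanine aminotransferase, fell at both temperatures.

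**Figure D4:**
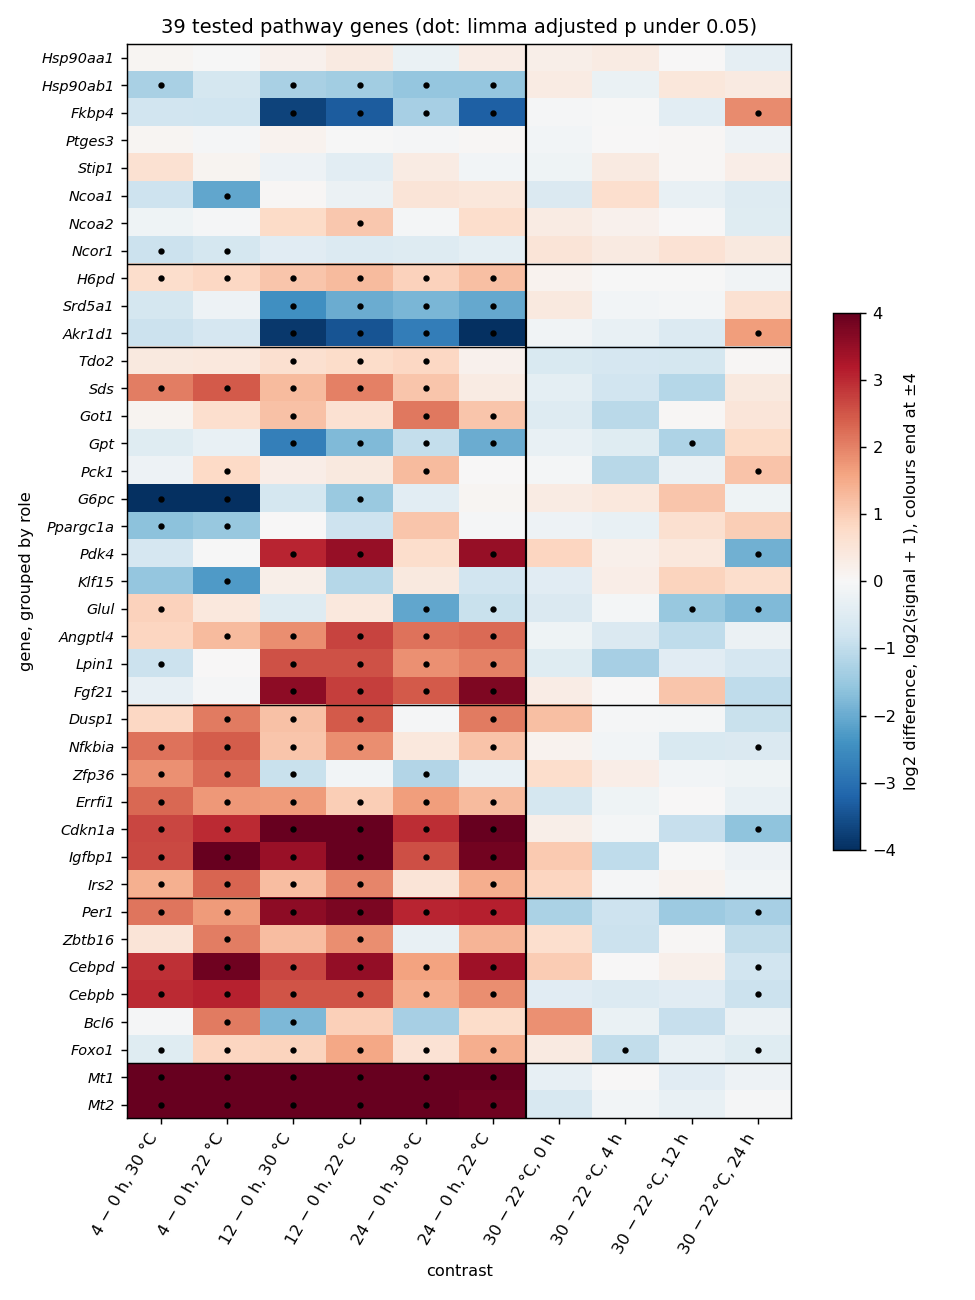
Log2 differences (colour, log2(signal + 1) scale, ending at ±4) of the 39 tested pathway genes in the 6 comparisons with 0 h and the 4 comparisons of 30 °C with 22 °C; dots mark limma adjusted p under 0.05. Mt1 and Mt2 are marked in all 6 comparisons with 0 h, and 11 genes are marked for 30 °C against 22 °C at 24 h.

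Between temperatures few genes of the list passed before 24 h. At 0 h none of the 39 did with limma (0.506% of all genes passed). The unadjusted limma p was under 0.05 for 13 of the 39, and for 861 of all 8702 genes. Without replicate 1 or 5 of 30 °C or replicate 1 or 2 of 22 °C, 1 or 2 genes of the list passed. At 4 h 1 gene passed (2.56%, against 0.207% of all genes): Foxo1, the insulin-restrained transcription factor, averaged 59.1 ± 3.05 at 30 °C and 119 ± 14.3 at 22 °C (n = 4 each; -0.99 ± 0.18, adjusted p = 0.0045). Its change from 0 h at 4 h differed between temperatures (-1.35 ± 0.24, adjusted p = 0.0264), the only one of all 8702 genes (0.0115%) to do so. That call was lost in 11 alternatives, which include leaving out any 1 sample of 30 °C at 4 h, replicate 1 or 3 of 22 °C at 4 h, replicate 2 or 5 of 30 °C at 0 h, or replicate 1 of 22 °C at 0 h, and the difference at 4 h itself was lost with only these groups in the fit (adjusted p = 0.0663). The count at 4 h was 2 without replicate 4 of 30 °C or replicate 2 of 22 °C.

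At 12 h 2 genes were lower at 30 °C (5.13%, against 4.26% of all genes). Glul, the glutamine synthetase of hepatocytes around the central vein, averaged 51.9 ± 5.98 at 30 °C (n = 4) and 165 ± 82.7 at 22 °C (n = 5; -1.51 ± 0.31, adjusted p = 0.00338). Gpt was lower too (-1.24 ± 0.34, adjusted p = 0.0261), a call lost in 7 alternatives, which include leaving out replicate 1 or 4 of 30 °C or replicate 1, 2 or 4 of 22 °C. Without replicate 5 of 22 °C the count was 5. No gene of the list differed in its change from 0 h at 12 h in the limma fit (0.276% of all genes did). The unadjusted limma p was under 0.05 for 7 of the 39, and for 1041 of all 8702 genes. In this comparison 1 gene passed with array weights and 1 without replicate 5 of 22 °C at 12 h.

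At 24 h 3 genes of the list were higher and 8 lower at 30 °C (28.2%, against 18.6% of all genes). Besides Fkbp4 and Akr1d1, the gluconeogenic gene Pck1 was higher, at 1518 ± 133 at 30 °C and 734 ± 304 at 22 °C (n = 5 each; 1.15 ± 0.26, adjusted p = 0.00179). The lower genes included Glul, at 16.8 ± 2.87 at 30 °C and 68.6 ± 38.3 at 22 °C (-1.78 ± 0.29, adjusted p = 4.38e-05), and Cdkn1a, at 118 ± 51.0 at 30 °C and 335 ± 38.9 at 22 °C (-1.61 ± 0.30, adjusted p = 0.000211). Pdk4, which holds back pyruvate oxidation, was also lower (-1.91 ± 0.52, adjusted p = 0.00918), as was Cebpb (-0.86 ± 0.20, adjusted p = 0.00205). The remaining lower genes had calls that depended on the settings. Those for Cebpd (limma adjusted p = 0.0452), Per1, Nfkbia and Foxo1 were lost in 12, 8, 4 and 3 alternatives. The changes of 7 genes from 0 h to 24 h differed between temperatures (17.9%, against 8.95% of all genes), 2 of them upward at 30 °C relative to 22 °C (Fkbp4 and Pck1) and 5 downward. The downward ones were Cebpd (-1.79 ± 0.40, adjusted p = 0.00366), Cdkn1a (-1.83 ± 0.44, adjusted p = 0.00682), Dusp1 (-2.11 ± 0.56, adjusted p = 0.0141), Foxo1 (-0.86 ± 0.23, adjusted p = 0.0147) and Pdk4 (-2.77 ± 0.76, adjusted p = 0.0185). The interaction call for Pck1 was lost in 11 alternatives, which include leaving out replicate 1, 3 or 5 of 30 °C or replicate 1 or 3 of 22 °C at 24 h, or replicate 3 or 5 of 30 °C or replicate 2 or 3 of 22 °C at 0 h. The call for Dusp1 was lost with only these groups in the fit (adjusted p = 0.0568) and that for Pdk4 without the filter (adjusted p = 0.0509). At 0 h Pdk4 was below the level of 3 reads in 2 of 5 libraries at 30 °C and 3 of 4 at 22 °C, and Cebpd in 0 of 5 at 30 °C and 3 of 4 at 22 °C.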

How the data were processed

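Bulk liver RNA of 36 samples was made into libraries with a modified CEL-Seq2 protocol, which primes at the poly(A) tail, per the labels' protocols, so that a value per base depends on the transcript length it was divided by. Reads were processed with Trimmomatic, kallisto and sleuth, per the submitters' processing notes; their versions, the index, the genome build and the handling of molecular identifiers are not given in the sources. Both values deposited by the authors per gene and sample were treated as signal: scaled reads per base, used throughout, and a second named TPM, which summed to 757040 to 1746038 per library and served as an alternative. Of 34829 genes, 34485 matched a symbol in GENCODE M21.

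Depth was estimated as the summed signal divided by the commonest low value, taken as 1 read, which gave 556798 to 2744275 reads. Between 16.7% and 19.6% of values per library were whole multiples of it within 0.01 read, so reads were not recovered, and the level of 3 reads covers counting error only.

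Genes whose mean signal reached 5 (8702) were fitted with limma 3.58.1 in R 4.3.3 (lmFit, eBayes with trend, two-sided) on log2(signal + 1), with 1 mean per group and all 36 samples. There were 13 contrasts: the temperatures at a given time (30 °C minus 22 °C), the later times from 0 h, and the interaction (the difference from 0 h at 30 °C minus that at 22 °C). Benjamini-Hochberg adjustment covered all genes of a contrast, with a threshold of 0.05, and the fit was tested on simulated data. The 9 genes, the list of 45 and the cell-type markers were chosen with earlier results of these data known. Named were the 9 genes, up to 3 genes of smallest p per role and contrast from the list, and the genes of most similar course. Genes of the list whose call between temperatures at 24 h was lost in alternatives were named as well. Alternatives were the second value, median-ratio rescaling, 0.5 or 5 added before the log, no filter, only the compared groups in the fit, array weights, a replicate block and leaving out each sample.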

Additional observations from a re-analysis of the deposited data

Results flagged for a closer look

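Within 72 sets of 4 or 5 samples (each of the 9 genes in each group), 5 had a highest sample whose gap to the next, over the range of the group, was above Dixon's critical value. Chance gives about 1 in 20. Tat reached 882 in replicate 2 of 30 °C at 0 h, with the next sample at 515, and 3016 in replicate 2 of 22 °C at 4 h, with the next at 1937. Tsc22d3 reached 32.0 in replicate 4 of 30 °C at 4 h, with the next at 9.38, in the library that stood apart in its number of genes above 0. Serpina6 reached 63.4 in replicate 3 of 30 °C at 12 h, with the next at 41.4. Hsd11b1 reached 592 in replicate 1 of 30 °C at 0 h, with the next at 477.

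The change from 0 h differed between 30 °C and 22 °C by the limma interaction test for these genes of the surrounding pathway. At 4 h it did for Foxo1 (-1.35). At 24 h it did for Pdk4 (-2.77), Dusp1 (-2.11), Cdkn1a (-1.83), Cebpd (-1.79), Foxo1 (-0.86), Pck1 (1.24) and Fkbp4 (1.94), all as log2 differences, with a positive value meaning a larger rise or smaller fall at 30 °C.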

How the results depend on the processing

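The log2 differences of the 9 genes gave 2232 values under alternatives for 117 results. Of these 2222 stayed within 1 SD of the reported value, 10 moved further, all with 5 added before the log and all for Ddit4, Serpina6 or Tsc22d3. The sign changed in 76 values of 19 results, each with a reported difference of at most 0.29 in size. Rescaling or the second value shifted the median of all genes by at most 0.037.

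The list's count at 4 h between temperatures was 1 as reported, 2 with median-ratio rescaling or 0.5 added, 3 with array weights and 0 with only the compared groups. At 12 h it was 2 as reported, 4 with 5 added, 1 without the filter and 8 with array weights. The interaction count at 4 h was 1 as reported and 0 with the second value or only the compared groups, and at 12 h it was 0 as reported and 1 with array weights. The count of the 9 genes separate from 0 h at 30 °C at 4 h was 2 as reported and 4 after rescaling. The cause was not tested.

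Leaving out 1 sample gave list counts between temperatures of 0 to 2 at 0 h, 1 to 2 at 4 h, 1 to 5 at 12 h and 8 to 12 at 24 h, and interaction counts of 0 to 1 at 4 h, 0 to 1 at 12 h and 6 to 9 at 24 h. Counts of separate genes among the 9 were 1 to 2, 3 to 5, 1 to 3 and 2 to 4 between temperatures at 0, 4, 12 and 24 h, and 2 to 4 at 30 °C at 4 h.

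Deviations of same-numbered samples from their group means correlated by -0.125 to 0.110 (118 pairs). These values gave no sign of pairing by replicate number, but a lack of correlation cannot show that samples are unpaired. For replicates 3 and 4 of 30 °C at 12 h the title and description labels give different numbers. The title numbers were used throughout, including in this check and in the replicate block. With a replicate block, the list's counts between temperatures were 0, 1, 3 and 10 at 0, 4, 12 and 24 h.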
